A study of Homo sapiens with 39 samples.

Results

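The E2F family of transcription factors was taken as the 8 genes E2F1 to E2F8, each found by its symbol in the count table and the RPM table. Each gene had 1 amplicon target among 20802 gene targets, namely E2F1 (AMPL29253382), E2F2 (AMPL30036601), E2F3 (AMPL10340053), E2F4 (AMPL7531768), E2F5 (AMPL9976395), E2F6 (AMPL21241121), E2F7 (AMPL22268883) and E2F8 (AMPL14009997), and all 8 passed the filter on low counts in every comparison. HepaRG cells, an established human hepatic cell line, were used as differentiated cultures and received the test article daily for 3 days, with RNA taken at 55 h of exposure, before any mitogen was given. The 39 libraries comprised 15 of DNA damage-inducing (DDI) chemicals, 15 of non-DDI chemicals and 9 vehicle controls, and each was made from the pooled RNA of 3 cultures, so a condition was 1 library. The study compared DNA-damaging with other chemicals, and here the activator members are set beside the atypical repressors E2F7 and E2F8.

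The DDI chemicals, each at a low, mid and high concentration, were 2-nitrofluorene (2NF, a nitroaromatic compound, 10, 50 and 250 µM), aflatoxin B1 (AFB1, a mycotoxin that forms adducts after metabolic activation, 0.25, 1 and 2.5 µM), cisplatin (CISP, a crosslinking agent, 2, 5 and 10 µM), etoposide (ETP, a topoisomerase II poison, 0.5, 2.5 and 10 µM) and methyl methanesulfonate (MMS, an alkylating agent, 50, 100 and 200 µM). The non-DDI chemicals were colchicine (COL, a microtubule poison, 0.05, 0.1 and 0.3 µM), 2-deoxy-D-glucose (2DG, a glycolysis inhibitor, 1.25, 5 and 10 mM), ampicillin trihydrate (AMP, 1, 3 and 10 mM), sodium ascorbate (ASC, 1, 2 and 10 mM) and sodium chloride (NaCl, 1, 2.5 and 10 mM). The controls were 4 DMSO, 4 media and 1 water library. DMSO was the vehicle of 2NF, AFB1, CISP, ETP and COL, with 1 control shared by AFB1 and COL, while water served MMS and media served the other four. Class and vehicle were therefore nearly confounded, since only COL among the non-DDI chemicals was given in DMSO and no DDI chemical was given in media. Each library had between 8504699 and 16425527 counts on gene targets.

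E2F proteins control the passage from G1 into S phase. The activators E2F1, E2F2 and E2F3 switch on genes of DNA replication once cyclin-dependent kinases phosphorylate the pocket proteins RB1, RBL1 and RBL2 that hold them back. E2F4 and E2F5 act mostly with pocket proteins as repressors in resting cells, E2F6 represses without them, and the atypical members E2F7 and E2F8 bind DNA without a DP partner, repress the targets of the activators, and are known in liver for their part in hepatocyte polyploidy. E2F7 is also a known transcriptional target of p53.

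Promoter windows from RefSeq (GRCh38.p14) were searched for 6 of the 8 members, and those of E2F5 and E2F8 were not searched. The windows run from 250 bases before to 50 bases after a gene's start. The letters searched, on both strands, were the 4 words TTTGGCGC, TTTCCCGC, TTTGCCGC and TTTCGCGC of the E2F consensus, and capitals mark each match. At least 1 word was found in a window of each activator, E2F1, E2F2 and E2F3, and none in those of E2F4, E2F6 and E2F7, whereas 3.31% of 35116 promoters of the same length held a word. The E2F1 window held 2 words that did not overlap, from 33 to 26 and from 20 to 13 bases before the start, and 0.145% of all promoters held 2 or more words. The windows of E2F1 (chr20:33686336-33686635, minus strand), E2F2 (chr1:23531184-23531483, minus strand) and E2F7 (chr12:77065520-77065819, minus strand) are shown because E2F1 and E2F7 carry the results and E2F2 shares a word with E2F1.
E2F1 promoter: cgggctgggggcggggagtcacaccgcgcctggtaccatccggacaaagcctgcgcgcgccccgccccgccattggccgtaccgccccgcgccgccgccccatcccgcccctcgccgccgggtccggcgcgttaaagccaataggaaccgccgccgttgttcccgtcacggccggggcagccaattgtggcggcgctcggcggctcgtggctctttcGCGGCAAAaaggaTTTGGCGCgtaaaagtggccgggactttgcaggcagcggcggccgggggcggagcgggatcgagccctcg
E2F2 promoter: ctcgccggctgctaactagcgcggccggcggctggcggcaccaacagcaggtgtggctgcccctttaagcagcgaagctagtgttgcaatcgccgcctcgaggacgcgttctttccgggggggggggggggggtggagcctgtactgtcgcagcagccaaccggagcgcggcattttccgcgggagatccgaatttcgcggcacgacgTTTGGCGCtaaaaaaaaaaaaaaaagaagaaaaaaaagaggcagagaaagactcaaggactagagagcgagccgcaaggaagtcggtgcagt
E2F7 promoter: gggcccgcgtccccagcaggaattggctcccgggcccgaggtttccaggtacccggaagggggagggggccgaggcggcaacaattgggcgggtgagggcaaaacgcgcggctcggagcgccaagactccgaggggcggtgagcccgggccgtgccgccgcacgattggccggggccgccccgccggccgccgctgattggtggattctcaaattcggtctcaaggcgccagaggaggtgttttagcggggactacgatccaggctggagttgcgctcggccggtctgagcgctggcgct
The matches describe letters only, and no binding was measured here.

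At the high concentration, the atypical repressors E2F7 and E2F8 and the activator E2F1 rose in DDI-treated cells relative to their matched controls. The fitted log2 differences were 1.49 (SE 0.28) for E2F7, 1.94 (SE 0.36) for E2F8 and 0.77 (SE 0.18) for E2F1, that is 2.80-fold, 3.83-fold and 1.70-fold (edgeR quasi-likelihood test with Benjamini-Hochberg adjustment over all genes, adjusted p = 0.0211, 0.019 and 0.047). These were 3 of the 8 members, against 1.93% of 13246 genes called in the same comparison, and 4 members, the fourth being E2F2, had an unadjusted p under 0.05, against 17.2% of genes. The members were chosen with earlier results of these data known, so these counts beside the shares are descriptions. E2F2 had a log2 difference of 1.41 (SE 0.48, adjusted p = 0.151 by edgeR), and E2F3 to E2F6 had differences between 0.03 and 0.36 that did not pass. Leaving out 2NF or AFB1 ended the calls of all 3 members, with adjusted p (edgeR) of 0.17 and 0.202 for E2F1, 0.0851 and 0.165 for E2F7 and 0.0686 and 0.162 for E2F8.

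The non-DDI chemicals at the high concentration gave no call among the 8 members in the same edgeR fit, where 0.00% of genes were called. At an unadjusted p under 0.05 there was 1 member, E2F5 (log2 difference 0.29, SE 0.13), against 4.17% of genes. E2F1, E2F7 and E2F8 had log2 differences of 0.08 (SE 0.17), 0.06 (SE 0.28) and 0.22 (SE 0.36) there. The direct test of DDI minus non-DDI called 0 of 8 members in edgeR, against 0.0453% of 13246 genes, with 3 at an unadjusted p under 0.05 (E2F1, E2F7 and E2F8), against 8.0% of genes. In that test the difference was 1.43 (SE 0.37, adjusted p = 0.23) for E2F7, 1.72 (SE 0.47, adjusted p = 0.27) for E2F8 and 0.69 (SE 0.23, adjusted p = 0.429) for E2F1. DESeq2 called 1 member, E2F7 (adjusted p = 0.0446), and gave 0.0843 for E2F8, where 98 of 13246 genes were called. A single edgeR fit of all 39 libraries called E2F7 and E2F8 (adjusted p = 0.0106 and 0.0197) and 167 of 13466 genes. That fit took the 3 concentrations of a chemical, which share 1 control, as separate libraries. Its libraries are therefore not independent, and its p-values may be too small. A rise over the controls was thus called in DDI-treated cells, while the difference between the classes did not pass in the edgeR fit of the high concentration. It passed for E2F7 with DESeq2, and for E2F7 and E2F8 in the fit of all 39 libraries. With other normalizations, other filters, no matched control sets or any chemical left out, edgeR called no member. E2F1 passed in none of these fits (adjusted p = 0.429 in edgeR, 0.268 in DESeq2 and 0.276 in the edgeR fit of all 39 libraries).

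**Figure D1:**
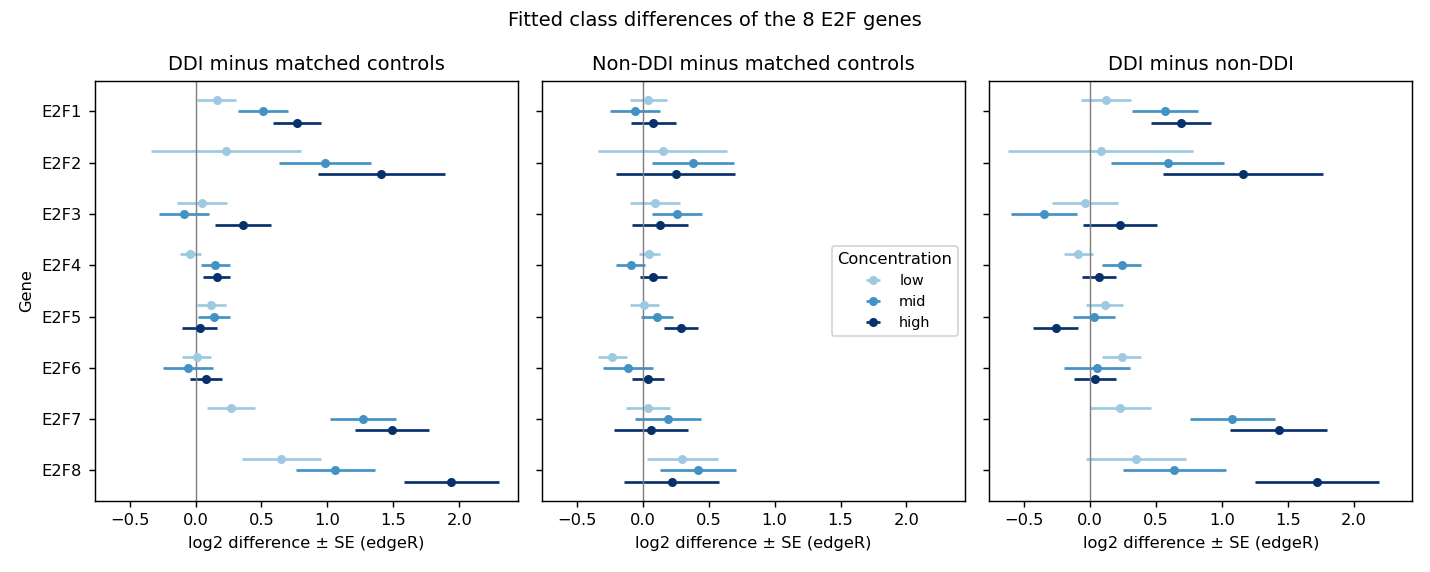
Fitted log2 difference ± SE (horizontal axis, edgeR) of each E2F gene (vertical axis) for DDI minus matched controls, non-DDI minus matched controls and DDI minus non-DDI, with the concentration as shade. E2F7 and E2F8 lie farthest to the right among DDI chemicals at the high concentration (1.49 and 1.94), while E2F4, E2F5 and E2F6 stay near 0.

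E2F1, an activator, was at 10.5 RPM (counts scaled to the library total) in the CISP control, 10.4 in the ETP control, 13.5 in the 2NF control and 17.6 in the control shared by AFB1 and COL. At the high concentration it was at 15.3 RPM with CISP, 23.8 with ETP, 35.6 with 2NF and 37.8 with AFB1. Each of these DMSO chemicals was thus above its own control, by log2 ratios of log2(RPM + 1) of 0.50, 1.12, 1.33 and 1.06. MMS differed from them. Its water control was at 53.1 RPM, above every other control, and the MMS libraries were at 46.0, 50.7 and 56.2 RPM at the low, mid and high concentration, log2 ratios of -0.20, -0.07 and 0.08. Among non-DDI chemicals at the high concentration the ratios ran from -0.32 (NaCl) through 0.12 (the median) to 0.46 (COL), so the class ranges overlapped. The counts behind E2F1 were between 127 and 703 per library, and the exact 95% counting interval of the log2 ratio without pseudocount was 0.88 to 1.52 for ETP and -0.09 to 0.25 for MMS at the high concentration.

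E2F2, a second activator, was sparse, with 4 to 86 counts per library and 5 libraries under 10 counts. Its level with 2NF was 6.23 RPM at the high concentration, 0.982 at the mid and 1.91 at the low, over a control of 0.419 RPM that rests on 4 counts. That gave the highest log2 ratio of any member in any condition, 2.35, while the ratio without pseudocount was 3.89 with an exact 95% counting interval of 2.47 to 5.81. AFB1 gave 1.24 and MMS 0.76 at the high concentration, CISP 0.42 and ETP -0.15. The non-DDI ratios ran from -0.97 (NaCl) to 1.09 (ASC), so E2F2 did not separate the classes.

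E2F3, the third activator, was above its matched control in all 5 DDI chemicals at the high concentration, by 0.08 (CISP), 0.18 (MMS), 0.31 (2NF), 0.57 (AFB1) and 0.77 (ETP). E2F1, E2F4, E2F7 and E2F8 were also above it in all 5, so 5 of 8 members met that description, as did 13.3% of genes. The E2F3 ratios of the non-DDI chemicals covered a wider range, from -0.59 (2DG) to 1.04 (ASC). The ASC control held the lowest E2F3 level of all 39 libraries, 7.18 RPM, and the 3 ASC libraries were at 14.1, 14.6 and 15.9 RPM.

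**Figure D2:**
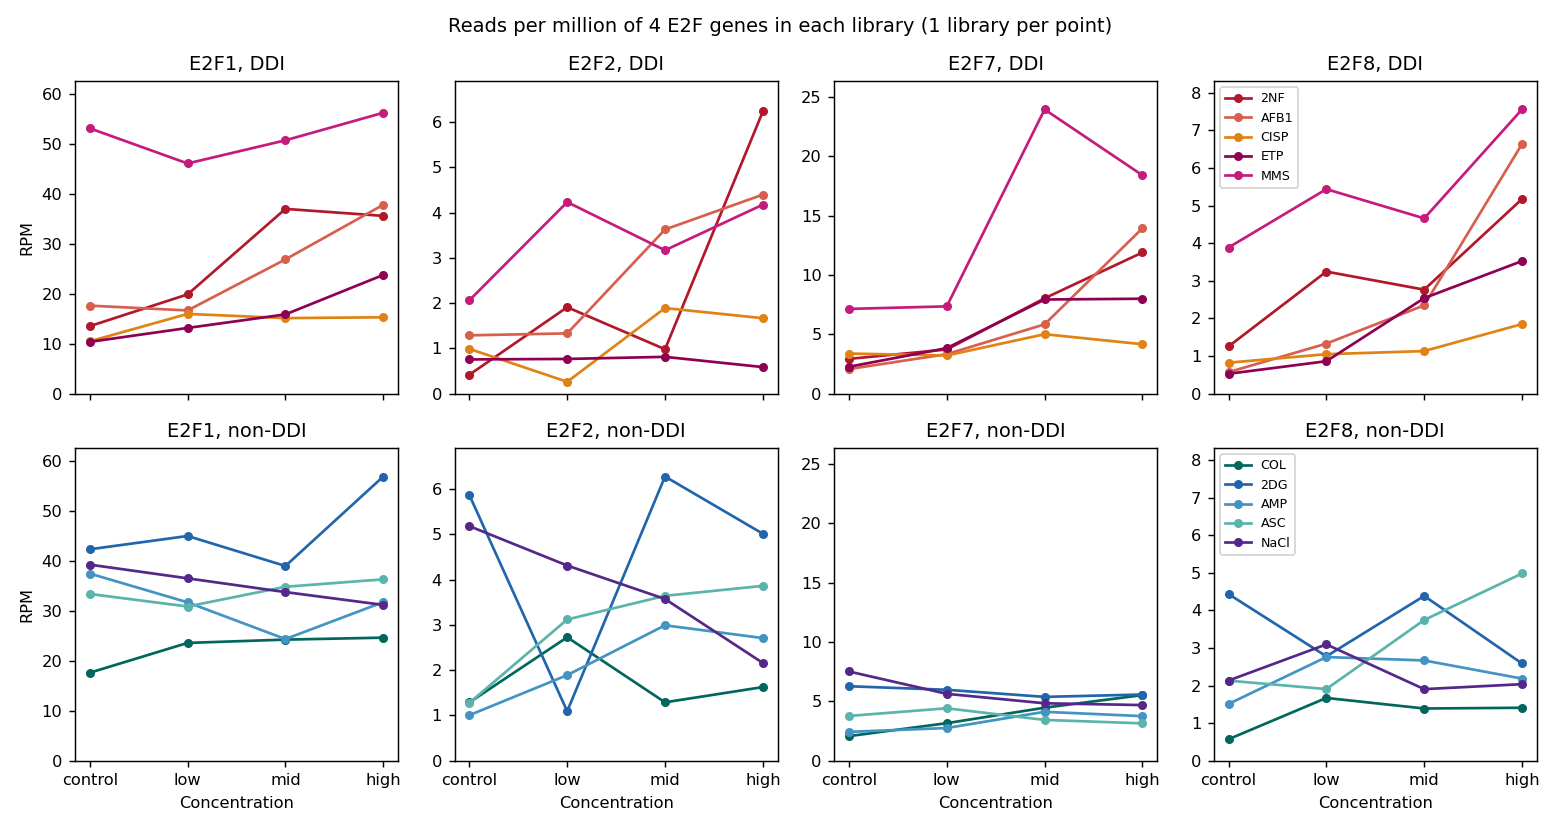
RPM (vertical axis, linear from 0) of E2F1, E2F2, E2F7 and E2F8 in the matched control and at the low, mid and high concentration (horizontal axis), with DDI chemicals in the upper and non-DDI chemicals in the lower panels and 1 library per point. E2F7 reaches 23.9 RPM with MMS at the mid concentration and no non-DDI library exceeds 5.98 RPM.

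E2F4 and E2F5, the repressors bound by pocket proteins, varied least. Over all 39 libraries the highest level was 1.82 times the lowest for E2F4 (38.7 to 70.4 RPM) and 1.81 times for E2F5 (13.6 to 24.6 RPM). E2F4 was above its control in all 5 DDI chemicals at the high concentration by 0.02 to 0.41, and the non-DDI ratios of -0.28 to 0.40 covered nearly the same range. For E2F5 the DDI ratios ran from -0.13 (ETP) to 0.36 (CISP) and the non-DDI ratios from -0.07 (NaCl) to 0.52 (ASC). The class difference at the high concentration was 0.07 (SE 0.13) for E2F4 and -0.26 (SE 0.17) for E2F5, neither of which passed (adjusted p = 0.961 and 0.767, edgeR).

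E2F6, the repressor that acts without pocket proteins, moved both ways among the DDI chemicals. With 2NF it was at 32.3, 46.8 and 37.0 RPM at the low, mid and high concentration over a control of 26.1, the lowest of the controls, while CISP gave 32.4, 19.6 and 34.9 RPM over 38.4. The CISP library at the mid concentration held the lowest E2F6 level of all 39 libraries and a log2 ratio of -0.94. The spread of the DDI ratios at the mid concentration was accordingly wide, a mean of -0.03 ± 0.66 (SD, n = 5 chemicals), and no class difference was called at any concentration.

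E2F7, the atypical repressor that p53 is known to induce, was at 2.08 RPM in the control of AFB1 and COL, 2.27 in that of ETP, 2.93 in that of 2NF, 3.38 in that of CISP and 7.14 in that of MMS. At the high concentration the levels were 13.9 RPM with AFB1, 8.0 with ETP, 11.9 with 2NF, 4.17 with CISP and 18.4 with MMS. All 5 were above their controls, with log2 ratios of 2.28, 1.46, 1.71, 0.24 and 1.25, and of the 4 given in DMSO only CISP stayed within the largest difference between 2 DMSO controls, 0.51. At the mid concentration the ratios were 1.15 (AFB1), 1.45 (ETP), 1.20 (2NF), 0.46 (CISP) and 1.61 (MMS). Non-DDI ratios at the high concentration were -0.58 (NaCl), -0.20 (ASC), -0.15 (2DG), 0.47 (AMP) and 1.09 (COL). COL was thus above CISP, and the classes overlapped. The COL and AFB1 ratios share a control, which held the lowest E2F7 level of all libraries.

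Without reference to any matched control, E2F7 exceeded the highest of the 9 controls (7.52 RPM, the media control of NaCl) in 7 of 15 DDI libraries and in 0 of 15 non-DDI libraries. Those 7 were the mid and high concentrations of ETP, 2NF and MMS and the high concentration of AFB1. For E2F1 the same comparison gave 1 of 15 libraries in each class, MMS and 2DG at the high concentration, against a highest control of 53.1 RPM. E2F8 gave 5 of 15 DDI libraries and 1 of 15 non-DDI libraries over 4.43 RPM. E2F6 gave 4 of 15 DDI and 0 of 15 non-DDI libraries over 42.97 RPM, and E2F4 gave 6 of 15 in each class over 57.3 RPM. E2F2, E2F3 and E2F5 gave 1 or 2 libraries in each class. These counts are descriptions, since the concentrations of a chemical are not independent and the share over all genes was not computed. The highest control of E2F1 was the water control of MMS, so its bar is not like that of E2F7. The E2F7 bar was a media control, and no DDI chemical was given in media. COL exceeded the highest DMSO control of E2F7 (3.38 RPM) at the mid and high concentrations (4.47 and 5.53 RPM). Each DDI chemical given in DMSO did so too.

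E2F8, the second atypical repressor, was sparse as well, at 7 to 71 counts per library with 3 libraries under 10 counts. It was at 0.573 RPM in the control of AFB1 and COL, 0.53 in that of ETP, 1.26 in that of 2NF, 0.825 in that of CISP and 3.89 in that of MMS. The high concentration brought it to 6.64, 3.53, 5.18, 1.85 and 7.56 RPM, log2 ratios of 2.28, 1.57, 1.45, 0.64 and 0.81. E2F8 was above its control in all 15 DDI libraries, with the smallest ratio 0.17 (CISP at the low concentration), and in 3 of 5 non-DDI chemicals at each concentration. The 3 concentrations of a chemical share 1 control, and the DMSO controls held 7 to 12 counts of E2F8, so the 15 ratios are not independent. The share of all genes that met this description was not computed. The non-DDI ratios at the high concentration ran from -0.60 (2DG) to 0.93 (ASC), which lies above those of CISP and MMS. Because of the low counts the pseudocount shrinks these ratios: for AFB1 the ratio without pseudocount was 3.53, with an exact 95% counting interval of 2.48 to 4.80.

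**Figure D3:**
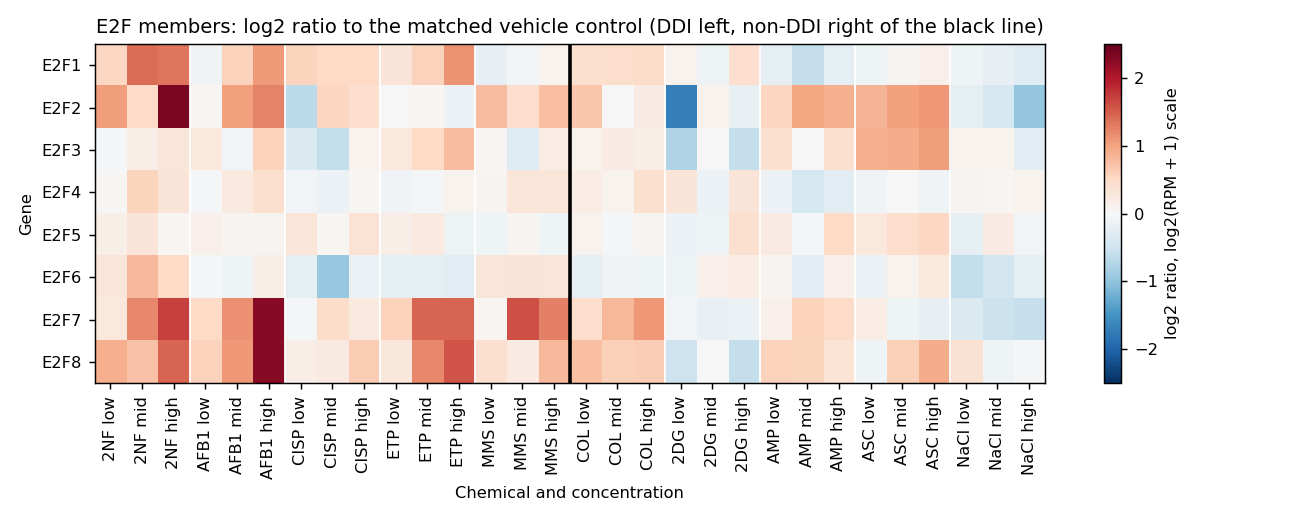
Log2 ratio of log2(RPM + 1) to the matched vehicle control (colour) for the 8 E2F genes (rows) in 30 conditions (columns), with DDI chemicals left and non-DDI chemicals right of the black line. E2F7 and E2F8 are the reddest rows on the DDI side and both reach 2.28 with AFB1 at the high concentration, and the COL columns are red in the same rows, up to 1.09.

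The response of the atypical members was set beside that of the activators condition by condition. At the high concentration the mean log2 ratio of E2F7 and E2F8 exceeded that of E2F1, E2F2 and E2F3 in all 5 DDI chemicals, by 1.32 (AFB1), 0.93 (ETP), 0.69 (MMS), 0.25 (2NF) and 0.11 (CISP). The averages were 1.37 ± 0.68 for the atypical pair and 0.71 ± 0.43 for the activators (SD, n = 5 chemicals). In non-DDI chemicals they were 0.19 ± 0.52 and 0.15 ± 0.48 (SD, n = 5 chemicals), and the atypical mean was the higher in 3 of 5. The non-DDI gaps were 0.58 (COL), 0.21 (NaCl), 0.05 (AMP), -0.25 (2DG) and -0.39 (ASC). COL, the only non-DDI chemical given in DMSO, thus had a wider gap than 2NF and CISP, so the gap was not particular to DDI chemicals. With MMS at the mid concentration E2F7 was at 1.61 and E2F1 at -0.07. E2F1 was above E2F7 with 2NF at the low and mid concentrations (E2F7 minus E2F1 of -0.26 and -0.19) and throughout with CISP (-0.62, -0.03 and -0.27 in order of rising concentration). These gaps are descriptions of single libraries, since members of 1 family measured in the same library are not replicates.

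By concentration, 0 of 8 members were called for DDI minus control at the mid concentration in edgeR, against 0.128% of 13273 genes, and 4 (E2F1, E2F2, E2F7 and E2F8) had an unadjusted p under 0.05, against 10.4% of genes. E2F7 came closest, at a log2 difference of 1.27 (SE 0.25, adjusted p = 0.0824 by edgeR). At the low concentration no member was called, against 0.00% of 13274 genes, and E2F8 alone had an unadjusted p under 0.05 (0.65, SE 0.30), against 3.37% of genes. For DDI minus non-DDI no member was called at the mid or the low concentration by edgeR (0.00% of genes at each) or by DESeq2. At an unadjusted p under 0.05 there were 2 members at the mid concentration (E2F1 and E2F7), against 5.69% of genes, and 0 at the low, against 2.21%. The log2 ratio rose at each step of concentration in 3 of 5 DDI chemicals for E2F1 (AFB1, ETP and MMS), for E2F7 (2NF, AFB1 and ETP) and for E2F8 (AFB1, CISP and ETP), and among non-DDI chemicals it did so for E2F1 with ASC and COL, for E2F7 with COL and for E2F8 with ASC. No member placed every DDI chemical above every non-DDI chemical at the high concentration, as 0.913% of genes did.

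The vehicle controls bear on these values, because E2F1 and E2F8 differed between the DMSO and the media controls, which held no test chemical. E2F1 was at 13.0 ± 3.41 RPM in the DMSO controls and at 38.1 ± 3.73 RPM in the media controls (SD, n = 4 each), a log2 difference of -1.52 (SE 0.18, adjusted p = 0.00197, edgeR quasi-likelihood fit of the 8 controls, a comparison added after the values were seen). E2F8 was at 0.796 ± 0.334 and 2.55 ± 1.29 RPM (SD, n = 4 each), a log2 difference of -1.70 (SE 0.41, adjusted p = 0.0369 by edgeR). These were 2 of 8 members called, against 5.35% of 13053 genes, and E2F2 and E2F7 joined them at an unadjusted p under 0.05, against 21.0% of genes. Every DMSO control was below every media control for E2F1 and E2F8, as for 8.82% of genes. The call of E2F8 was lost when any of 6 of the 8 controls was left out, whereas that of E2F1 was kept in each case. E2F3 to E2F6 had vehicle differences between -0.14 and 0.03 that did not pass.

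**Figure D4:**
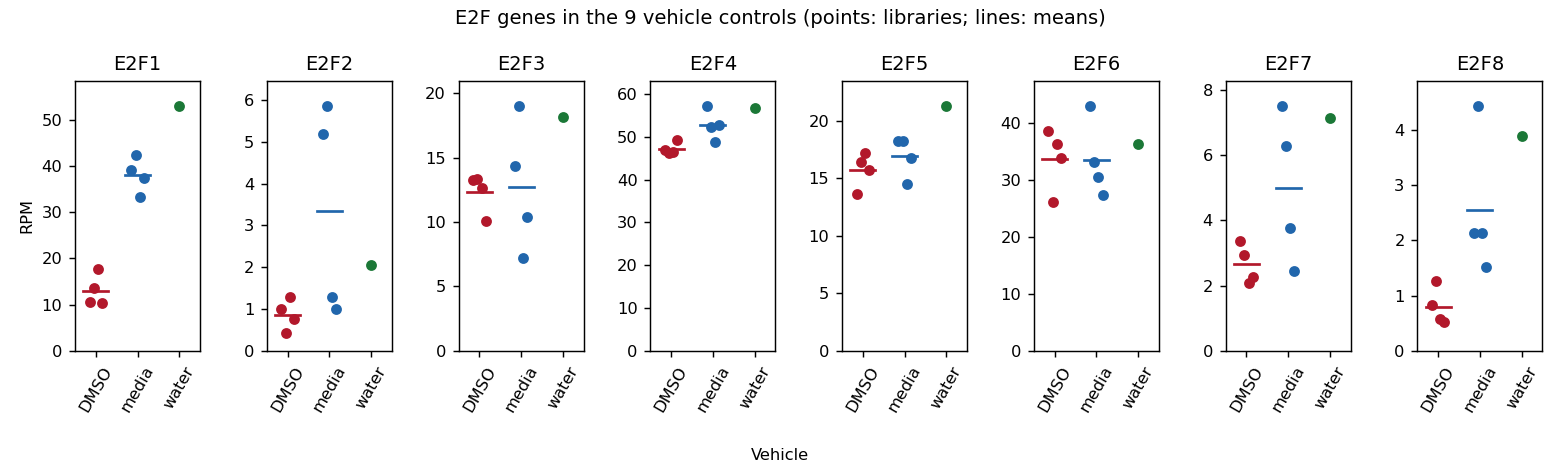
RPM (vertical axes, each linear from 0) of the 8 E2F genes in the 9 vehicle controls by vehicle (horizontal axis), with libraries as points and means of the 4 DMSO and 4 media controls as lines. E2F1 is lower in every DMSO control (10.4 to 17.6 RPM) than in every media control (33.4 to 42.3 RPM), while E2F4, E2F5 and E2F6 overlap between these vehicles.

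At the high concentration E2F1 in the 4 DDI chemicals given in DMSO (15.3 to 37.8 RPM) was above the DMSO controls of the same chemicals and within or below the range of the media controls. Fitted without the matched control sets, the E2F1 difference between DDI and controls was 0.17 (SE 0.36, adjusted p = 0.831) and that between DDI and non-DDI turned to -0.17 (SE 0.41), while E2F7 stayed called against controls at 1.36 (SE 0.32, adjusted p = 0.048, edgeR). Within the DMSO chemicals alone, the DDI differences from controls were 1.03 (SE 0.15) for E2F1, 1.70 (SE 0.36) for E2F7 and 2.34 (SE 0.39) for E2F8 (adjusted p = 0.0338, 0.0665 and 0.0421, edgeR). That fit holds COL as its single non-DDI chemical, with 1 library. The difference of DDI from COL was 0.98 (SE 0.61) for E2F7, 1.90 (SE 0.68) for E2F8 and 0.62 (SE 0.27) for E2F1. Vehicle and the culture set of each chemical cannot be told apart.

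Marker lists were read beside the E2F values. The summed RPM of 8 mitotic genes was 72.1 to 109 in the DMSO controls and 135 to 268 in the media controls. Its log2 ratio to the matched control at the high concentration was 0.74 to 2.99 in DDI chemicals and -0.40 to 2.11 in non-DDI chemicals, with COL the highest of the latter. The summed RPM of the 7 hepatocyte markers had log2 ratios at the high concentration of -1.90 (MMS) to 0.23 (ETP) in DDI chemicals and -1.04 (COL) to 0.66 (ASC) in non-DDI chemicals. Such a sum follows its most abundant genes, so it does not show that all markers of a list moved together. At the mid concentration of MMS, where E2F7 was at 23.9 RPM, the hepatocyte ratio was -2.84 and the cholangiocyte ratio -1.34. Of 6 cholangiocyte markers, KRT7, EPCAM and CFTR were under 10 counts in every library. The log2 ratio of the summed RPM of that list at the high concentration was -1.15 (2NF) to 0.77 (CISP) in DDI and -0.55 to 0.38 in non-DDI chemicals. In pooled bulk RNA, fewer cells of a type and less RNA per cell cannot be told apart, and the part of these shifts in the E2F values was not tested.

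The genes around the family were described by 6 lists of 59 genes, of which 57 were tested. The S-phase targets of the activators rose most widely: 13 of 24 were called higher in DDI chemicals at the high concentration and 22 had an unadjusted p under 0.05, against 1.93% and 17.2% of all genes, with a median log2 difference of 1.05 beside -0.00 over all genes. With AFB1 left out edgeR called 0 of 13339 genes in that comparison (1723 at an unadjusted p under 0.05) and so 0 of the 24, and 6 of the 24 were called without 2NF and 2 without the matched control sets, alternatives added for the lists after the data were seen. The DDI minus non-DDI test called 0 of the 24 in edgeR, against 0.0453% of genes, while 19 had an unadjusted p under 0.05, against 8.0% of genes, and the median was 0.91, beside -0.02 over all genes. RRM2, a subunit of ribonucleotide reductase, was higher by 1.76 (SE 0.24), TK1, thymidine kinase, by 1.41 (SE 0.20) and CDC25A, a phosphatase that activates CDK2, by 1.44 (SE 0.34) in DDI chemicals relative to controls (adjusted p = 0.00495, 0.00551 and 0.0499, edgeR). Without AFB1 their adjusted p (edgeR) was 0.0582, 0.0582 and 0.22.

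Among 8 G1 cyclins and kinases none was called and 5 had an unadjusted p under 0.05, against 1.93% and 17.2% of all genes. The same shares stand beside the counts of the lists that follow. CCNE2, CCNE1 and CCND1 had log2 differences of 1.29 (SE 0.35), 0.86 (SE 0.25) and 0.42 (SE 0.12) between DDI chemicals and controls. Among 5 tested CDK inhibitors, CDKN1A, the p53 target that restrains CDK2, was called, at 0.49 (SE 0.11, adjusted p = 0.0333, edgeR), but its call was lost when 2DG, 2NF, AFB1, AMP, CISP or ETP was left out (adjusted p from 0.0516 to 0.166, edgeR). CDKN2B and CDKN2C had 0.31 (SE 0.14) and 0.05 (SE 0.11). CDKN1C and CDKN2A were too low to be tested. None of the 5 pocket proteins and DP partners was called, with RBL1 at 0.52 (SE 0.17), TFDP1 at 0.19 (SE 0.11) and TFDP2 at 0.07 (SE 0.15). For the MuvB core, MYBL2 and FOXM1, 0 of 7 were called, although MYBL2 (1.17, SE 0.32), FOXM1 (1.24, SE 0.36) and LIN9 (0.65, SE 0.17) had an unadjusted p under 0.05. Of 8 mitotic genes, TOP2A (1.60, SE 0.29) and CDK1 (1.56, SE 0.29) were called and MKI67 (1.35, SE 0.38) was not (adjusted p = 0.017, 0.0188 and 0.082, edgeR). TOP2A and CDK1 lost their calls without 2NF (adjusted p = 0.0518 and 0.0539, edgeR), without AFB1 (0.119 and 0.122) and among DMSO chemicals only (0.0577 and 0.0551), and CDK1 also without the matched control sets (0.0549).

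**Figure D5:**
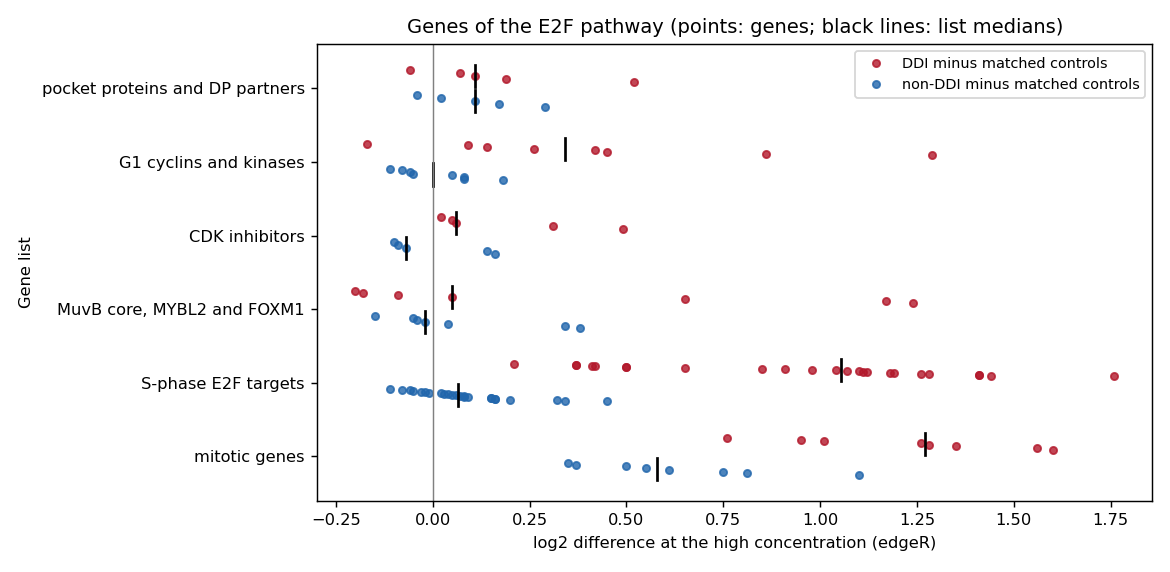
Log2 difference at the high concentration (horizontal axis, edgeR) of the genes of 6 lists around the E2F family (vertical axis), for DDI and non-DDI chemicals relative to matched controls, with genes as points and list medians as black lines. The S-phase targets have a median of 1.05 in DDI and 0.07 in non-DDI chemicals, and the mitotic genes of 1.27 and 0.58.

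The genes whose log2 ratios over the 30 conditions ran most like those of a member were sought among the 11562 genes that reached 10 counts throughout, as a description, since conditions share controls. For E2F7 they were FANCI (Pearson's r = 0.912), CENPW (0.886), SPATA18 (0.87), ARID3A (0.866) and CHAF1A (0.864). For E2F1 they were TONSL (0.894), DTL (0.875), MCM3 (0.874), CDC45 (0.869) and RMI2 (0.862), and for E2F8 MLF1IP (0.83), CCNE2 (0.82), NCAPG (0.814), MYBL1 (0.81) and PCNA (0.799). Between members, r was 0.733 for E2F7 and E2F8, 0.623 for E2F7 and E2F1, and 0.248 for E2F1 and E2F2.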

How the data were processed

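RNA-Seq libraries of HepaRG cells were sequenced on Ion Torrent chips after targeted amplification (AmpliSeq). The authors aligned reads to the panel's transcripts (hg19) with the TMAP aligner and deposited unnormalized read counts for each amplicon target. The deposited RPM values are these counts divided by the total of the library, and recomputed RPM differed by at most 0.000538. The 10 spike-in targets had no counts and were left out. The DDI and non-DDI classes follow the study's description of the chemicals, and the labels give chemical and concentration.

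Log2 ratios were differences of log2(RPM + 1), with a pseudocount of 1, between a treated library and its matched control. Counts were tested in edgeR 4.0.16 (R 4.3.3, TMM, filterByExpr, quasi-likelihood test, Benjamini-Hochberg adjustment over all genes, threshold 0.05), with 19 libraries per concentration, the matched control set as a block, a term for each class and 8 residual degrees of freedom. Chemicals served as replicates of a class. The fit was run on simulated counts that held no differences between control sets or vehicles, so that run did not test how the fit handles them. Alternatives were DESeq2 1.42.0, other normalizations, filters, control choices and each chemical left out. Counting intervals are exact binomial (95%) and cover counting error only. Library totals ranged from 8504699 to 16425527. Named genes were all members, the 3 genes of each list with the largest class difference at the high concentration, CDKN1A and the 5 genes most like E2F1, E2F7 and E2F8. The members and lists were chosen with earlier results of these data known. No hg19 annotation was used here, so amplicon coordinates are left out. Python 3.11.15, pandas 2.3.3, scipy 1.17.1 and matplotlib 3.10.9 were used.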

Additional observations from a re-analysis of the deposited data

Results flagged for a closer look

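E2F3 with ASC at the mid concentration stood apart from the other non-DDI chemicals, with a log2 ratio of 0.93 beside a next highest of 0.20, a gap of 0.788 of the range (Dixon's critical value 0.71 for 5 samples). The ASC control held 118 counts of E2F3, and the treated library 144. It was 1 of 64 groups of E2F values examined, and chance flags about 1 in 20.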

How the results depend on the processing

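The count of members called for DDI minus non-DDI at the high concentration was 0 in edgeR and became 2 in 1 fit of all 39 libraries and 1 with DESeq2. It was 0 with each chemical left out (range 0 to 0), and at the mid and low concentrations it was 0 under every alternative run. For DDI minus controls the count of 3 became 1 with at least 10 counts in every library, where E2F8 was not tested and E2F1 had an adjusted p of 0.0522 (edgeR), and 1 without the control-set block, and ranged from 0 to 3 with a chemical left out. In 1 fit of all 39 libraries, which are not independent, it was 4. That fit added the activator E2F2 (log2 difference 1.43, SE 0.45, adjusted p = 0.0477, edgeR). E2F1 also lost its call without 2DG, AMP, ASC, CISP or ETP (adjusted p from 0.0587 to 0.0921, edgeR), and E2F7 without MMS (adjusted p = 0.052, edgeR). For DMSO minus media controls the 2 members called became 1 with at least 10 counts in every library and ranged from 1 to 2 with a control left out. Of the pathway genes, 0 were called for DDI minus non-DDI in edgeR, 1 with library totals, 5 with no filter, 1 without the block, 13 in 1 fit of all 39 libraries, 8 with DESeq2 and 0 to 2 with a chemical left out. Over all genes the same settings, in the same order, called 6, 8, 34, 34, 167, 98 and 0 to 16. The fit of all 39 libraries and DESeq2 called the most pathway genes and the most genes. No filter and no block each called 34 genes, but 5 and 1 pathway genes.

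The sign of the class difference turned for E2F1 without the block (-0.17), for E2F4 and E2F5 among DMSO chemicals only (-0.07 and 0.02), and with a chemical left out for E2F4 (-0.00 to 0.15) and E2F6 (-0.06 to 0.12). For DDI minus controls it turned for E2F5 without the block (-0.02) and with a chemical left out for E2F5 (-0.05 to 0.09) and E2F6 (-0.00 to 0.16), and between the vehicles for E2F3 (-0.22 to 0.24) and E2F6 (-0.05 to 0.18) with a control left out. The causes were not tested. With 1 library per condition no spread between cultures can be given, and E2F2 and E2F8 rest on as few as 4 and 7 counts.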

Other observations

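Some falls of E2F members were found in single non-DDI conditions. E2F2 had 13 counts with 2DG at the low concentration against 86 in its control, a log2 ratio of -1.71, whereas the mid and high concentrations were at 0.08 and -0.19. E2F1 with AMP at the mid concentration was at 24.3 RPM against 37.4 in its control (-0.60), while the low and high concentrations were both at -0.23. With 1 library each, these differences have no replicate check.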
